A study of Rattus norvegicus with 11 samples.

Results

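Atf4, Gadd45b and Gadd45g are stress response genes, and their messenger RNA was followed in the corpora quadrigemina of rats that differ in proneness to audiogenic epilepsy, i.e., seizures set off by loud sound. The members were taken by identifier, as ENSRNOG00000017801 (Atf4), ENSRNOG00000019822 (Gadd45b) and ENSRNOG00000013090 (Gadd45g), and so make 3 of the 32883 genes counted in each library. All 3 were counted in all 11 rats and passed the filter on low counts in every comparison. The study sequenced polyA RNA of 11 male rats aged 4 months as one library of 75-bp single-end reads per rat. The dissected tissue held the inferior and superior colliculi, midbrain centres for hearing and for orienting.

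The 3 KM (Krushinsky-Molodkina) rats belong to an inbred strain that was bred out of Wistar stock for its seizures, and each had reached the maximal tonic response to the bell. The 4 “0” rats (written O in the sample titles) come from a line founded on F2 hybrids of KM and Wistar and bred against such seizures, with backcrosses to KM early on; the line is not fully free of seizures, and the rats sequenced were ones that had not responded. The 4 W rats are outbred Wistar animals, from which those showing a wild run had been left out. All 3 groups heard the bell 4 days before the tissue was taken, and at a younger age KM rats had been tested once and “0” rats repeatedly. The study states that W rats were tested like KM rats, but describes a test at the younger age only for KM and “0” rats. Whether W rats heard the bell as often as KM rats is thus not clear. The repeated tests mark the “0” rats. In them strain and number of tests cannot be told apart, which may hold for KM against W too. KM rats alone had answered the bell with seizures, so in them strain and seizure history cannot be told apart. The strain field of the labels reads Wistar for every rat, so the groups rest on the titles and source names.

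ATF4 is a leucine zipper transcription factor at the centre of the integrated stress response. When kinases that sense unfolded protein, lack of amino acids, lack of heme or double-stranded RNA phosphorylate the initiation factor eIF2, most translation falls while the Atf4 message is translated more, and ATF4 then switches on genes of amino acid supply, redox defence and, under lasting stress, cell death. Since that step acts on translation, the level of Atf4 mRNA does not give the level of the protein. GADD45 proteins (growth arrest and DNA damage inducible) are small acidic proteins without known enzyme activity that bind the kinase MEKK4 upstream of p38 and JNK, the replication clamp PCNA and the cell cycle inhibitor p21. In neurons Gadd45b and Gadd45g are known as activity-induced genes linked to active DNA demethylation.

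The promoters of the members are shown because all 3 genes were compared as a stress response group and these stretches let a reader see what their start sites share and do not share. Each is the 250 bases before the annotated start in RefSeq on the GRCr8 assembly, given 5′ to 3′ on the gene's strand, at chr7:113684431-113684680 on the plus strand for Atf4, chr7:9430719-9430968 on the minus strand for Gadd45b and chr17:13530352-13530601 on the minus strand for Gadd45g. These coordinates belong to GRCr8 and not to Rnor_6.0, on which the reads were counted. Capitals mark the motifs described next.
Atf4: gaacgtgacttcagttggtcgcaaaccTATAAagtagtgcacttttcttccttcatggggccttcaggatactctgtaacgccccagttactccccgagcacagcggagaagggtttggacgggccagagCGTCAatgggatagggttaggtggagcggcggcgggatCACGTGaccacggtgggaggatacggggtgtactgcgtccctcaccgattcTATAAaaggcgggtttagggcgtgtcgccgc
Gadd45b: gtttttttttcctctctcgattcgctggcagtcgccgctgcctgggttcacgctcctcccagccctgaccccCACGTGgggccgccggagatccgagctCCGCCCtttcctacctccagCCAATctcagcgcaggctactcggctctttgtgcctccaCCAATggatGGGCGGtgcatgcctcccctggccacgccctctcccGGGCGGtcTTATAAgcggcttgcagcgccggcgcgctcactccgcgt
Gadd45g: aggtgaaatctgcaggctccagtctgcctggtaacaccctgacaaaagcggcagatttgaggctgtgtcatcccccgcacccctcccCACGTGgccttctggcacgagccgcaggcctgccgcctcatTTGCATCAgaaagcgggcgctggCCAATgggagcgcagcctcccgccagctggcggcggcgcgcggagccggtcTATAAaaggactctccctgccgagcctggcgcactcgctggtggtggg

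The E-box CACGTG stood in all 3 windows, 82 bases before the start of Atf4, 178 before that of Gadd45b and 163 before that of Gadd45g, and 5.59% of the 33469 promoters of the same length held it. TATAA was also in all 3, against 24.0% of promoters, at 31, 38 and 48 bases before the start, with a further match 223 bases upstream in Atf4 and an overlapping match on the other strand in Gadd45b. CCAAT occurred in Gadd45b (2 matches) and Gadd45g (1 match) but not in Atf4, and 34.0% of promoters held it. The GC box GGGCGG was matched 3 times in Gadd45b and in neither other window, against 30.5% of promoters. The element that pairs C/EBP and ATF proteins, searched as TGATGNAA, had 1 match, read on the gene strand as TTGCATCA, 122 bases before the start of Gadd45g, and 3.40% of promoters held one. TGACG, the core of the cyclic AMP response element (CRE), was matched once in Atf4, 120 bases upstream, against 18.2% of promoters. The whole CRE TGACGTCA, the AP-1 motif TGANTCA and the NF-kB consensus were not in these windows, and 1.59%, 6.34% and 6.33% of promoters held them. All motifs were searched on both strands, a match is a run of letters and no measured binding, and these RNA data do not bear on any of the sites. The windows contained 57.2% G and C in Atf4 and 66% in both GADD45 genes, beside a median of 51.2% over all promoters.

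The libraries held 10545964 to 15140180 reads assigned to genes, with a median of 11861682. Levels are given in CPM (counts per 1000000 assigned reads) scaled by TMM (trimmed mean of M-values) factors over all 11 rats; a count of 3, taken as the floor, equals 0.198 to 0.284 CPM. CPM is not corrected for transcript length, so each gene is compared only with itself. The libraries differed in composition: the 10 genes with most counts took 7.94% of assigned reads in KM rat 3 and 7.95% in “0” rat 4, 29.2% in “0” rat 3, and between these in the others. KM rat 3 also stood apart in choroid plexus genes, with 8161 CPM summed over the 8 markers whose names were known of 14, against 230 to 272 CPM in the other KM rats, 169 to 213 CPM in “0” rats and 160 to 294 CPM in W rats. The 3 named red blood cell markers of 5 summed to 822 to 1992 CPM in W rats, above KM rats (332 to 756 CPM) and “0” rats (338 to 481 CPM), and the 4 named astrocyte markers of 7 to 3157 to 3776 CPM in KM rats, 2575 to 3392 CPM in “0” rats and 2510 to 2936 CPM in W rats. No named marker of these lists was at 0 in every rat. Neuron markers had no paired name and were not analysed here, so the labelled tissue could not be checked against them. In bulk tissue, more RNA of a gene per cell and more cells that express it cannot be told apart.

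Atf4 was the most counted member, with 817 to 2819 reads per rat. In KM rats 1 to 3 its level was 128.6, 151.4 and 166.4 CPM. The “0” rats 1 to 4 had 143.7, 113.9, 89.9 and 135.1 CPM, and W rats 1 to 4 had 117.2, 103.6, 93.0 and 124.9 CPM. Every KM rat was above every W rat, while “0” rats 1 and 4 were above KM rat 1 and the “0” rats spanned the whole W range.

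Gadd45b, an inhibitor of some apoptotic signals as well as an activity-induced gene, was a low count gene in this tissue, with 53 to 156 reads per rat. Its level in KM rats 1 to 3 was 9.70, 7.30 and 9.21 CPM. The “0” rats 1 to 4 had 5.53, 7.31, 8.04 and 8.84 CPM, and W rats 1 to 4 had 7.39, 4.59, 5.60 and 4.98 CPM. KM and W rats overlapped through a single pair, KM rat 2 and W rat 1, and the “0” rats reached from the middle of the W values into the KM values.

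Gadd45g, the closest relative of Gadd45b among the members, was counted 24 to 124 times per rat. KM rats 1 to 3 had 7.31, 6.54 and 7.32 CPM. The “0” rats 1 to 4 had 5.76, 3.32, 2.64 and 4.94 CPM, and W rats 1 to 4 had 5.40, 5.89, 4.13 and 3.85 CPM. All KM rats lay above all “0” and all W rats, which 116 of the 13492 genes tested in all comparisons did (0.86%), and “0” and W rats overlapped widely.

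**Figure D1:**
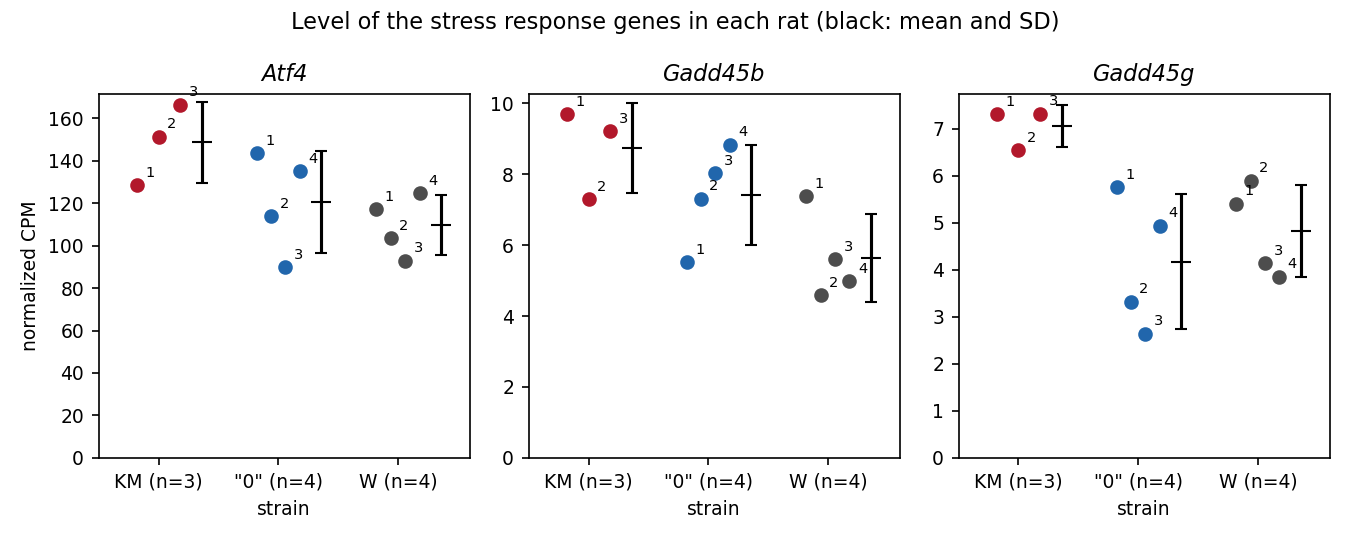
Normalized level (CPM) of Atf4, Gadd45b and Gadd45g in each rat, with points numbered by rat and colored by strain, and the mean ± SD of each strain in black. KM rats lie above all W rats for Atf4 and above all other rats for Gadd45g, while for Gadd45b KM rat 2 (7.30 CPM) is just under W rat 1 (7.39 CPM).

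The spread among rats of one strain was set beside counting error. The coefficient of variation of Atf4 was 12.8% in KM, 19.9% in “0” and 12.9% in W rats, and that of Gadd45b was 14.5%, 19.0% and 21.9%. For Gadd45g it was 6.36% in KM, 34.5% in “0” and 20.4% in W rats. Random counting alone would give a coefficient of variation of 1.88% to 3.50% for Atf4, 8.01% to 13.7% for Gadd45b and 8.98% to 20.4% for Gadd45g at the highest and lowest counts seen. Counting error was thus small beside the spread of Atf4 and closer in size to that of the GADD45 genes, and the agreement of the KM rats in Gadd45g was closer than counting error alone would on average give.

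The comparison of KM with W rats asks how the seizure-prone strain, its seizure history included, differs from outbred Wistar rats of today. By the study's account these and KM rats have long been bred apart, so W rats are not the founding stock itself. All 3 members were higher in KM rats at the unadjusted p of 0.05 that serves as the call here, as in the methods of the study, by the quasi-likelihood F-test of edgeR. Calls in either direction were made for 10.9% of the genes tested, and calls higher in KM for 5.58%. The members were chosen with earlier results of these data known. Their calls, here and against “0” rats, are thus a description and no independent support. None of the members passed the Benjamini-Hochberg adjustment over the 13721 genes, which 0.0656% of genes (9 genes) did.

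For Atf4, KM rats averaged 149 ± 19.0 CPM (SD, n = 3) and W rats 110 ± 14.2 CPM (SD, n = 4). The fitted log2-fold change was 0.44 (SE 0.14, 95% interval 0.12 to 0.76), i.e., 1.36-fold, with an edgeR p of 0.0128 and adjusted p = 0.366, and the exact two-sided permutation test of strain labels gave p = 0.0571. For Gadd45b, KM rats averaged 8.74 ± 1.26 CPM (SD, n = 3) and W rats 5.64 ± 1.24 CPM (SD, n = 4). Here the fit gave 0.63 (SE 0.22, 95% interval 0.13 to 1.13), i.e., 1.55-fold, with an edgeR p of 0.0195, adjusted p = 0.394 and an exact permutation p = 0.114. For Gadd45g, KM rats averaged 7.06 ± 0.449 CPM (SD, n = 3) and W rats 4.82 ± 0.984 CPM (SD, n = 4). The fit gave 0.54 (SE 0.21, 95% interval 0.06 to 1.03), i.e., 1.46-fold, with an edgeR p of 0.0315, adjusted p = 0.429 and an exact permutation p = 0.0571. The intervals of the 3 fold changes overlap over most of their length, so these data do not order the members by the size of the difference.

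The smallest p that an exact permutation of 3 against 4 rats can give is 0.0571, so this test could not reach 0.05 and Atf4 and Gadd45g were at its limit. Every KM rat lay above every W rat for 5.4% of all genes tested, among them Atf4 and Gadd45g. Without KM rat 3, the rat with high choroid plexus RNA, no member kept its call, and the log2-fold changes were 0.36 for Atf4, 0.59 for Gadd45b and 0.52 for Gadd45g. The call of Gadd45b was also lost without KM rat 1 (0.55) or W rat 2 (0.54). That of Gadd45g was lost without KM rat 1 (0.52), KM rat 2 (0.59), W rat 3 (0.47) or W rat 4 (0.44). The edgeR p of these lost calls lay between 0.0503 and 0.0785. KM stayed the higher strain for each member in each of these fits. The summed level of 6 marker lists separated every KM rat from every W rat. Most names came from the study's lists of genes that differ between KM and W or “0” rats, so naming favoured such separation. The astrocyte list was higher in KM and the red blood cell list lower, with the values given above. The other lists rest on 1 named marker each, which for microglia had 22.7 to 27.5 CPM in KM and 15.6 to 20.1 CPM in W rats and for endothelial cells 110 to 123 and 77.6 to 100.4 CPM. The marker of oligodendrocyte precursors had 8.27 to 13.8 CPM in KM and 14.2 to 20.8 CPM in W rats, and that of meningeal fibroblasts 1.07 to 1.95 and 2.15 to 10.7 CPM. The part of cell makeup in the members' differences was not tested.

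The comparison of KM with “0” rats sets the seizure-prone strain against non-responding rats that share part of its descent; its KM rats are the same ones as above, so it is no independent repeat. Only Gadd45g among the members was called higher in KM, where 3.65% of 13686 genes were called in either direction, 2.37% higher in KM, and 0.0146% (2 genes) passed the adjustment. For Gadd45g the “0” rats averaged 4.17 ± 1.44 CPM (SD, n = 4), and the log2-fold change of KM against “0” was 0.75 (SE 0.29, 95% interval 0.09 to 1.40), i.e., 1.68-fold, with an edgeR p of 0.0296, adjusted p = 0.987 and an exact permutation p = 0.0571. All KM rats were above all “0” rats, which 2.37% of genes also showed. The call was lost without KM rat 1 (0.72), KM rat 2 (0.80), KM rat 3 (0.74), “0” rat 2 (0.66) or “0” rat 3 (0.58), with an edgeR p between 0.0531 and 0.0731. The 1 named oligodendrocyte marker had 4463 to 4870 CPM in KM and 2550 to 3640 CPM in “0” rats, and the choroid plexus list was also higher in every KM rat than in every “0” rat. Naming favoured such separation here too. The part of these markers in the difference of Gadd45g was not tested.

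For Atf4 the “0” rats averaged 121 ± 24.0 CPM (SD, n = 4) and the log2-fold change of KM against “0” was 0.30 (95% interval -0.12 to 0.72, adjusted p = 0.987, exact permutation p = 0.171). For Gadd45b they averaged 7.43 ± 1.41 CPM (SD, n = 4) and the log2-fold change was 0.23 (95% interval -0.28 to 0.75, adjusted p = 0.987, exact permutation p = 0.343). These intervals hold both no difference and differences as large as those between KM and W rats, so for Atf4 and Gadd45b neither a shared nor a different level in KM and “0” rats is shown.

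Between “0” and W rats, both without seizures, no member was called, where 6.69% of 13630 genes were called in either direction, 3.26% higher in “0”, and 0.11% (15 genes) passed the adjustment. The log2-fold change of “0” against W was 0.13 for Atf4 (95% interval -0.24 to 0.50, exact permutation p = 0.514), 0.39 for Gadd45b (95% interval -0.11 to 0.88, p = 0.143) and -0.21 for Gadd45g (95% interval -0.84 to 0.42, p = 0.429). The smallest p that 4 against 4 rats allow is 0.0286, and the adjusted p of edgeR lay between 0.873 and 0.979. Every “0” rat lay above every W rat for 2.34% of genes, and the members were not among them. Gadd45b passed the unadjusted threshold without “0” rat 1 (0.52) or without W rat 1 (0.55), with an edgeR p of 0.0473 and 0.0403.

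Ordered by mean level, Atf4 and Gadd45b ran KM, “0”, W, and Gadd45g ran KM, W, “0”. For Atf4 and Gadd45b the middle place of the “0” rats is not separated from either neighbour, since only the ends of the order differed at the threshold. For Gadd45g KM passed the unadjusted threshold against both other strains, in comparisons that share the same KM rats. For “0” against W its interval ran to both sides of no difference, so neither a shared nor a different level is shown.

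**Figure D2:**
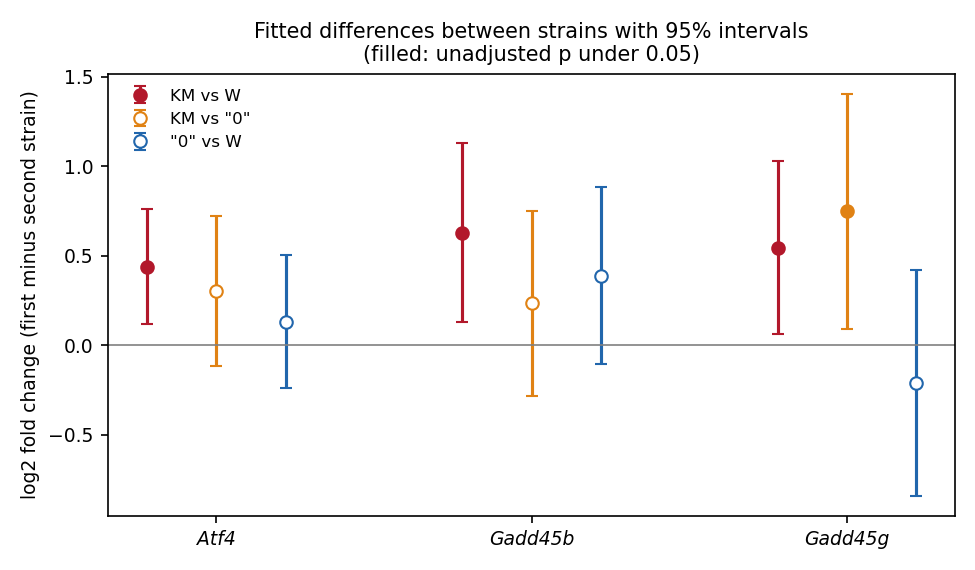
Fitted log2-fold changes of the 3 members in the 3 comparisons, with 95% intervals and filled points where the unadjusted p of edgeR was under 0.05. All 3 members are filled for KM against W (0.44, 0.63 and 0.54), Gadd45g alone is filled for KM against “0” (0.75), and none is filled for “0” against W.

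Whether the members deviated together among rats of one strain was asked with strain means removed. Atf4 and Gadd45g had a Pearson r of 0.62 over 11 rats (permutation p = 0.138, adjusted over 3 pairs 0.415; Spearman rho 0.45, permutation p = 0.276), which fell to 0.28 without “0” rat 3 and W rat 3. For Atf4 with Gadd45b r was -0.21 (permutation p = 0.593, adjusted p = 0.710; rho -0.22, p = 0.578; r = -0.13 without the same 2 rats), and it turned to 0.10 without “0” rat 1 alone. For Gadd45b with Gadd45g it was -0.16 (permutation p = 0.710, adjusted p = 0.710; rho -0.13, p = 0.773; r = 0.01 without “0” rat 1 and W rat 1), and it turned to 0.30 without “0” rat 1 alone. No pair was shown to move together, and the low counts of the GADD45 genes limit what these values can show.

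The composition of the library was compared with the members in the same way, in 6 relations chosen after the data were seen. With the share taken by the 10 genes with most counts, Atf4 had a strain-centred r of -0.75 (permutation p = 0.0448, adjusted p = 0.190; rho -0.62, p = 0.0654) and Gadd45g of -0.71 (permutation p = 0.0634, adjusted p = 0.190; rho -0.64, p = 0.0253). Without “0” rats 3 and 4 these were -0.53 and -0.43. Gadd45b had an r of -0.18 (permutation p = 0.674, adjusted p = 0.808; rho -0.17, p = 0.642), or -0.26 without the same rats. With the share of reads outside annotated genes r was 0.09 for Atf4 (permutation p = 0.831, rho 0, p = 1), 0.33 for Gadd45b (p = 0.394, rho 0.28, p = 0.468) and 0.61 for Gadd45g (p = 0.107, rho 0.63, p = 0.101), with adjusted p of 0.831, 0.591 and 0.214; without “0” rat 4 and W rat 2 these r were -0.08, 0.55 and 0.44.

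With the top-10 share as a covariate in the edgeR fit, KM against W gave 0.34 for Atf4, 0.51 for Gadd45b and 0.46 for Gadd45g, with an edgeR p of 0.0645, 0.0712 and 0.102, so that no call was kept. KM against “0” gave 0.63 for Gadd45g, with an edgeR p of 0.0496. The difference between strains in this fit kept its direction for each of these values. With library totals taken without the 10 genes with most counts all calls were kept, at 0.44 for Atf4, 0.63 for Gadd45b and 0.54 for Gadd45g against W and 0.73 for Gadd45g against “0”. Without KM rat 3 and “0” rats 3 and 4, the libraries at the ends of the top-10 share, these were 0.36, 0.59, 0.52 and 0.60. No call was kept. The fits against W hold no “0” rats, so their values repeat those without KM rat 3 alone. The cause of these losses was not tested.

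**Figure D3:**
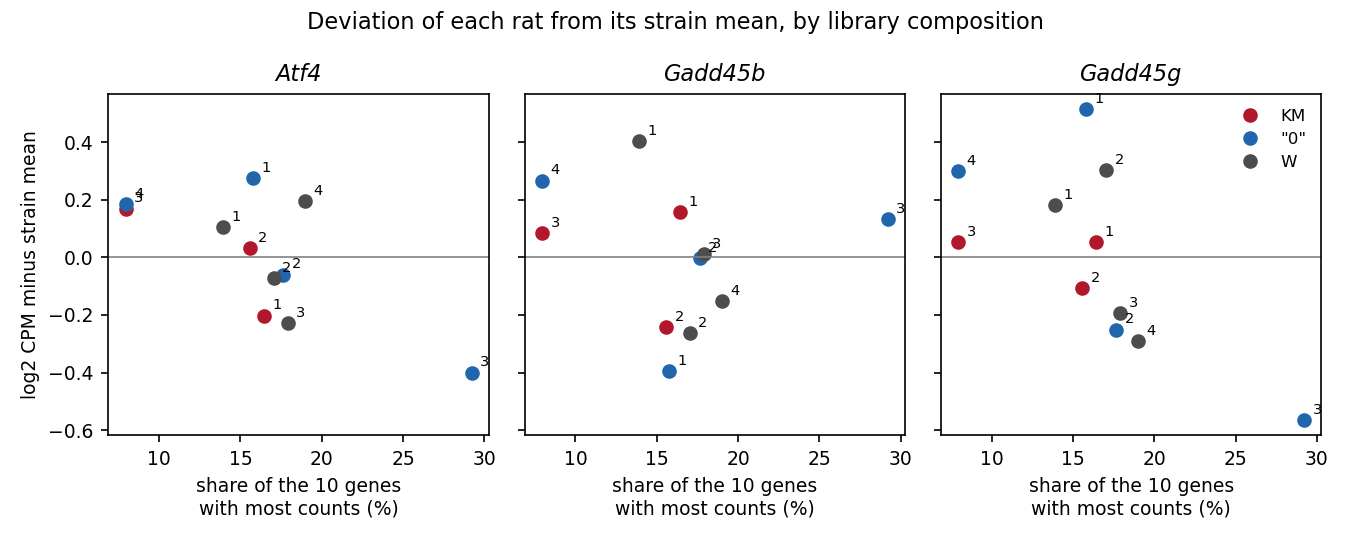
Deviation of each rat's log2 CPM from its strain mean against the share of assigned reads taken by the 10 genes with most counts, for each member, with points numbered by rat and colored by strain. “0” rat 3, at 29.2%, is the lowest rat in Atf4 and in Gadd45g relative to its strain but not in Gadd45b.

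Only 1763 of the 32883 identifiers (5.36%) could be given a symbol, nearly all from the study's own lists of genes that differ between KM and W or between KM and “0” rats. Of 257 symbols in the pathway lists 40 were therefore named, and the counts below are favoured by that choice and support nothing about a pathway. Markers in the lists above were named in the same way. Gadd45a, the remaining family member, and the ATF4 targets Ddit3, Asns, Trib3, Chac1, Sesn2 and Atf3 were not analysed here. In the next paragraphs, a gene called higher or lower had an unadjusted p under 0.05 in edgeR. The p-values printed are adjusted over all genes tested in the comparison, and none of these genes passed that adjustment.

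Of the genes upstream of Atf4, 2 of 18 were named. Eif2ak2, the eIF2 kinase that senses double-stranded RNA, was higher in KM rats than in W rats (19.8 and 12.6 CPM, log2-fold change 0.65, adjusted p = 0.327), and Eif2b1, a subunit of the exchange factor that phosphorylated eIF2 blocks, was lower (14.5 and 22.5 CPM, -0.63, adjusted p = 0.321). Eif2b1 was also lower in “0” than in W rats (-0.86, adjusted p = 0.0791). Of 53 ATF4 targets 5 were named and they did not share one direction: against W rats 3 were lower in KM, 1 was higher and 1 was not called, with a median log2-fold change of -0.39 beside 0.01 over all genes tested. The lower ones were Slc7a11, the cystine importer (23.9 and 37.2 CPM, -0.64, adjusted p = 0.304), Ddit4, an inhibitor of mTORC1 (60.8 and 84.2 CPM, -0.47, adjusted p = 0.259), and Phgdh, the first enzyme of serine synthesis (145 and 190 CPM, -0.39, adjusted p = 0.334). Vldlr, a lipoprotein receptor, was higher (50.0 and 38.8 CPM, 0.37, adjusted p = 0.334), and Slc38a2, an amino acid carrier, had a log2-fold change of 0.38 (adjusted p = 0.463). Slc7a11 was also lower in KM than in “0” rats (-0.66, adjusted p = 0.987). Against W rats, “0” rats too were lower in Ddit4 (-0.80, adjusted p = 0.0724) and higher in Vldlr (0.30, adjusted p = 0.631). The other 3 named targets were not called between “0” and W rats. Crebzf, the named partner of the ATF and C/EBP group of 23, was higher in KM rats than in W rats (0.62, adjusted p = 0.360).

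Among partners of the GADD45 proteins, 3 others of the list of 17 were named. Gadd45gip1, a mitochondrial ribosomal protein that binds GADD45 proteins, was lower in KM than in W rats (50.4 and 63.9 CPM, -0.34, adjusted p = 0.394). Cdkn1a, which encodes p21, was higher (19.5 ± 12.5 CPM, SD, in KM and 8.75 ± 1.44 CPM, SD, in W rats, log2-fold change 1.15, adjusted p = 0.368), with KM rats from 10.2 to 33.8 CPM. Tdg, a DNA glycosylase of the demethylation route, was higher in KM than in “0” rats (0.49, adjusted p = 0.987) and did not pass the test against W (0.04, adjusted p = 0.964). Of the p53 targets, 5 of 30 were named and against W rats 3 were higher in KM (Cdkn1a; Tp53inp1, 0.91, adjusted p = 0.355; Pmaip1, 0.80, adjusted p = 0.334) and Ei24 was lower (-0.44, adjusted p = 0.362), with a median of 0.80 over the named ones. Of 29 kinases and phosphatases of the p38 and JNK routes 2 were named. Mapkapk2, a kinase activated by p38, was higher in KM rats than in W rats (0.28, adjusted p = 0.456) and higher in “0” than in W rats (0.30, adjusted p = 0.682), and Dusp1, a phosphatase that turns p38 and JNK off, was lower in “0” than in W rats (-0.78, adjusted p = 0.157).

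Gadd45b and Gadd45g are counted among the immediate early genes, which neurons switch on within minutes of activity, and 10 others of this list of 39 were named. All 10 were lower in “0” than in W rats, with a median log2-fold change of -0.96 beside -0.01 over all genes, while Gadd45b was at 0.39 and Gadd45g at -0.21 without passing the test. The symbols were not taken from a list of that comparison, but it shares its “0” and W rats with those that were. Fos, a subunit of AP-1, had 18.7 to 25.7 CPM in W and 9.16 to 12.2 CPM in “0” rats, without overlap, and a log2-fold change of -0.98 (adjusted p = 0.0724). Nr4a1, an orphan nuclear receptor, differed by -1.42 (adjusted p = 0.157), and Egr1, a zinc finger factor, by -0.94 (adjusted p = 0.212). Against W rats, 4 of the 10 were lower in KM (Egr1, -1.09, adjusted p = 0.352; Per1, -0.68, adjusted p = 0.363; Klf2, -0.59, adjusted p = 0.390; Klf4, -0.52, adjusted p = 0.340) and none was higher, with a median of -0.39. Gadd45b and Gadd45g were called in the direction opposite to these 4. The names of the 4 came through the study's own gene lists, and the members were chosen with earlier results of these data known. The contrast is therefore given as a description only. Over all 13721 genes tested, 732 were called lower in KM.

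Against “0” rats, 5 of the 10 were higher in KM and none was lower, with a median of 0.58 beside 0.01 over all genes, and Gadd45g (0.75) was called in the same direction. Nr4a2, a nuclear receptor of the dopamine lineage, had 6.55 to 17.6 CPM in KM and 1.76 to 4.18 CPM in “0” rats (log2-fold change 1.89, adjusted p = 0.478), and Nr4a1 had 11.1 to 54.0 and 7.16 to 12.5 CPM (1.70, adjusted p = 0.907). Nr4a3 (0.95, adjusted p = 0.987), Fos (0.76, adjusted p = 0.987) and Sik1 (0.67, adjusted p = 0.987) were the others called. KM rats ranged from 10.9 to 28.0 CPM in Fos and from 6.54 to 7.32 CPM in Gadd45g.

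**Figure D4:**
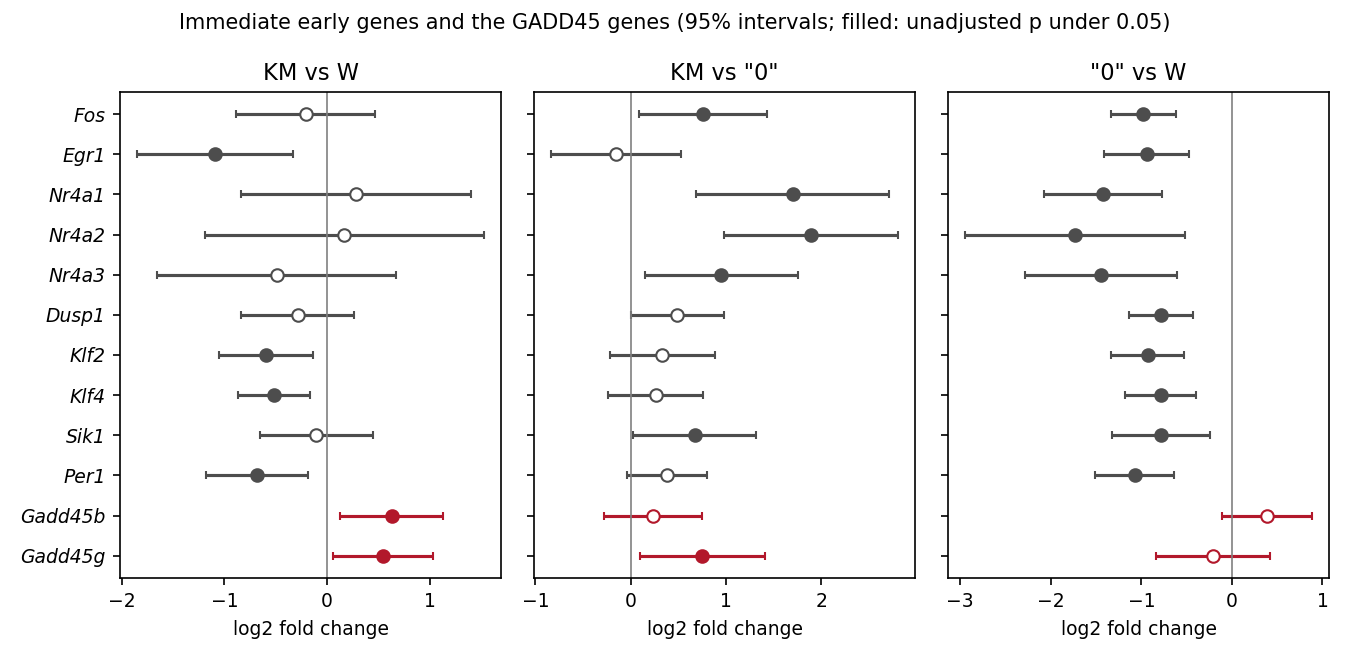
Fitted log2-fold changes with 95% intervals of the 10 named immediate early genes (grey) and of Gadd45b and Gadd45g (red) in the 3 comparisons, filled where the unadjusted p was under 0.05. All 10 grey points lie left of 0 for “0” against W, where the red points lie at 0.39 and -0.21, and both red points lie right of 0 for KM against W.

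Glucocorticoid hormones raise some of these genes in the brain, and 10 others of a list of 19 glucocorticoid responsive genes were named. Against W rats 2 were higher and 3 lower in KM, against “0” rats 2 were higher and 2 lower in KM, and 3 were higher and 5 lower in “0” than in W rats, with medians of -0.32, 0.32 and -0.50. Sgk1, a hormone-induced kinase, had 35.7 to 61.7 CPM in KM, 19.9 to 30.0 CPM in “0” and 46.6 to 99.1 CPM in W rats (KM against “0” 0.93, adjusted p = 0.690; “0” against W -1.43, adjusted p = 0.0998). Sult1a1, a sulfotransferase, ran the other way, lower in KM than in “0” rats (-1.46, adjusted p = 0.188) and higher in “0” than in W rats (1.24, adjusted p = 0.238). Of 3 named genes of the unfolded protein response (of 24), Sel1l, part of the degradation machinery of the endoplasmic reticulum, was higher in KM rats than in W rats (0.23, adjusted p = 0.450) and Sec61b, a subunit of its translocation channel, was lower (-0.37, adjusted p = 0.370). Cryab, the named heat shock gene of 14, was higher in KM rats than in W rats (0.46, adjusted p = 0.448) and in “0” than in W rats (0.68, adjusted p = 0.457). Of the NF-kB list of 18, which holds Gadd45b as a known target, 2 others were named, and Nfkbia, the inhibitor of NF-kB, was lower in KM than in W rats (-0.42, adjusted p = 0.453) and in “0” than in W rats (-0.74, adjusted p = 0.182).

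The named genes whose log2 CPM ran most alike to each member over the 11 rats were searched among 1477 named genes with a mean of at least 5 CPM, of 11026 such genes in all. For Atf4 these included Sucla2 (Pearson r = 0.93, and 0.90 with strain means removed), AABR07007916.1 (0.93 and 0.90), Slc4a1ap (0.92 and 0.91) and Tmem242 (0.91 and 0.87). For Gadd45b they were Spata13 (0.93 and 0.85), Kank1 (0.90 and 0.84), Kif1c (0.90 and 0.76), Enpp4 (0.89 and 0.78) and Gltp (0.88 and 0.74). For Gadd45g they were Rcor1 (0.88 and 0.85), Hnrnpm (0.86 and 0.74), Znrf2 (0.83 and 0.74), Ccdc25 (0.83 and 0.70) and Rbm26 (0.82 and 0.69). No gene stood among the 5 nearest named genes of more than 1 member, and genes without a symbol, some of them nearer, are not listed. These are the highest values of a long search over points that share libraries and their composition, so they are given as a description.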

How the data were processed

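Reads were trimmed with Trimmomatic, aligned to Rnor_6.0 with STAR and counted per Ensembl gene with HTSeq by the authors, who deposited one table of raw counts per rat; versions, annotation and the strand setting are not given in the sources used here. The rows below the genes in each table carry category names usual for featureCounts, so the counter is HTSeq only as the study's methods and labels state it. Library preparation marked strand (directional kit). From the deposited counts, TMM factors and the quasi-likelihood F-test (original form) of edgeR 4.0.16 in R 4.3.3 were computed for each pair of strains, on genes with a mean of at least 1 CPM in the rats compared, after being tested on simulated data. Rows that name no gene (16.5% to 22.7% of reads outside annotated genes, 1.44% to 2.36% ambiguous) stayed out of library sizes. The standard error is the size of the log2-fold change divided by the square root of F, log2 CPM used a prior count of 2, and permutation tests were exact for single genes and used 100000 draws within strains for correlations. Nothing in the labels gives a batch or date. Separate rats are the replicates.

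The members and gene lists were chosen with earlier results of these data known. Symbols came from the identifier and name columns of a supplementary gene table of the study, whose fold changes and p-values were not used; the RefSeq table matched 0 identifiers. Named genes were the members, genes of each list with the lowest unadjusted p (up to 4 for KM against W, 3 for KM against “0” and 2 for “0” against W), a few fixed genes and the 5 most alike to each member, of which 1 is not reported here; Slc38a2 and Sik1 were added after their values were seen, to complete counts. Alternatives (RLE factors, no scaling, DESeq2 1.42.0, a newer edgeR form, other filters, one fit of all rats, a replicate block, other library sizes, leaving out each rat) are described in the closing section.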

Additional observations from a re-analysis of the deposited data

Results flagged for a closer look

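In 82 groups of 4 rats (the 3 members and 38 context genes in “0” and in W rats), 4 had one rat apart from the other 3 by Dixon's criterion at the 95% level, which chance meets in about 1 in 20 groups, and none of them was a member. Phgdh was 209 CPM in W rat 1, and the next W rat had 185 CPM. Slc7a11 was 50.3 CPM in “0” rat 2, and the next “0” rat had 35.6 CPM. Crebzf was 19.0 CPM in W rat 2, and the next W rat had 13.4 CPM. Ei24 was 140 CPM in W rat 4, and the next W rat had 110 CPM. Groups of 3 rats (KM) are too small for the criterion.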

How the results depend on the processing

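Over 9 other settings, not counting rats left out, the direction of each member was kept in each comparison, and Atf4 and Gadd45b kept their calls (KM vs W 0.43 to 0.55 and 0.58 to 0.73). Gadd45g lost its call in KM vs W in one fit of all 11 rats (0.55, edgeR p of 0.0662) and with the replicate block (0.46, edgeR p of 0.124). On the same rats without the block, a fit added after seeing the data, it was 0.44 (edgeR p of 0.0675). In KM vs “0” it kept its call (0.73 to 0.91). The adjusted p of each member stayed at 0.210 or above in these settings. Genes called in KM vs “0” rose from 500 to 777 with no filter and to 769 with the replicate block, which also drops “0” rat 4; the same rats without the block gave 706. Replicate numbers gave no evidence of pairing: same-numbered rats correlated at -0.15, -0.18 and 0.19 (KM and W), 0.06, 0.06 and 0.24 (KM and “0”), and 0.11, -0.01, 0.51 and -0.58 (“0” and W). Genes with adjusted p under 0.05 numbered 5 to 147 (KM vs W), 1 to 40 (KM vs “0”) and 0 to 119 (“0” vs W), the highest with DESeq2. The library size alternative left out the 10 genes with most counts but not mitochondrially encoded genes, whose identifiers were not named.

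Leaving out each rat in turn gave 0.36 to 0.53 (Atf4), 0.54 to 0.79 (Gadd45b) and 0.44 to 0.66 (Gadd45g) in KM vs W, 0.17 (without “0” rat 3) to 0.39 (Atf4), 0.11 (without “0” rat 1) to 0.35 (Gadd45b) and 0.58 to 0.94 (Gadd45g) in KM vs “0”, and 0.04 (without “0” rat 1) to 0.26 (without “0” rat 3) (Atf4), 0.30 to 0.55 (Gadd45b) and -0.39 (without “0” rat 1) to -0.04 (without “0” rat 3) (Gadd45g) in “0” vs W. Genes called ran from 954 (without W rat 1) to 1831 in KM vs W and from 280 (without “0” rat 3) to 921 (without KM rat 3) in KM vs “0”, with 295 without KM rat 1. Additions chosen after seeing the data lost calls. With the top-10 share as covariate KM vs W was 0.34 (Atf4), 0.51 (Gadd45b) and 0.46 (Gadd45g). Without KM rat 3 and “0” rats 3 and 4, Gadd45g in KM vs “0” was 0.60 (edgeR p of 0.114), with 1004 genes called. KM vs W holds no “0” rats, so there this fit is the one without KM rat 3 (0.36, 0.59 and 0.52). The cause was not tested. The counts of Gadd45g, down to 24, and 3 KM rats limit what can be shown.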
